A study of Mus musculus with 16 samples.

Results

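The Hox genes encode homeodomain transcription factors and lie in 4 clusters in the mouse genome, Hoxa, Hoxb, Hoxc and Hoxd. The members described here were 38 Hox genes, of 21938 protein-coding genes in GENCODE release M21 (mm10), with 10 genes each in Hoxa and Hoxb and 9 each in Hoxc and Hoxd. The rule that picks them uses gene family and position and no measured value. Each cluster was taken from the first to the last of these genes: Hoxa at chr6:52162417-52260880 (98.5 kb), Hoxb at chr11:96194316-96368256 (173.9 kb), Hoxc at chr15:102921103-103036852 (115.8 kb) and Hoxd at chr2:74668310-74765142 (96.8 kb). Together they span 485 kb, or 0.0178% of the chromosomes counted.

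In the embryo the genes of a cluster are switched on in the order in which they lie, with low paralog numbers used towards the head and high numbers towards the tail. Where they are silent, Polycomb repressive complex 2 covers the clusters with trimethylated histone H3 lysine 27 (H3K27me3), while active promoters carry H3K4me3 and constitutive heterochromatin carries H3K9me3. In the male germ line the promoters of many developmental regulators are known to carry H3K27me3 and H3K4me3 together.

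The libraries came from live haploid spermatids sorted with Hoechst and propidium iodide from testes of 2-month-old males. KO males carried disrupting mutations in all 3 X-linked H2A.B genes (H2afb1, H2afb2 and H2afb3, which encode a short histone H2A variant), in a line descended from 1 founder and backcrossed to C57BL/6J, and WT males were their siblings. AutoCUT&RUN, in which an antibody tethers micrococcal nuclease to chromatin and the released fragments are sequenced, was run with antibodies to H3K4me3, H3K27me3 and H3K9me3 and with IgG as the control. This gave 16 libraries in 8 groups, 2 for each antibody and genotype. The fragments are not transcripts, and the loss of H2A.B was not checked here.

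Promoters of Hoxd12 and Hoxd8 are shown because these genes of 1 cluster differed in both marks: Hoxd12 was among the members richest in H3K27me3, and Hoxd8 had little H3K27me3 and relatively much H3K4me3. Each sequence is the 250 bases before the RefSeq start (build GRCm38.p6, plus strand), which is also the GENCODE start, with CG dinucleotides in capitals. Hoxd12 lies at chr2:74674763-74675012 and Hoxd8 at chr2:74704365-74704614.
Hoxd12: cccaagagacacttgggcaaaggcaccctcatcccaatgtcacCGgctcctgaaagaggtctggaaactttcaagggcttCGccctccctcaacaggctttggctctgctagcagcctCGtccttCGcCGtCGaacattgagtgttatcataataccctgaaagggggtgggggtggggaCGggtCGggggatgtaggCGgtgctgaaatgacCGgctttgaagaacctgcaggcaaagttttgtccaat
Hoxd8: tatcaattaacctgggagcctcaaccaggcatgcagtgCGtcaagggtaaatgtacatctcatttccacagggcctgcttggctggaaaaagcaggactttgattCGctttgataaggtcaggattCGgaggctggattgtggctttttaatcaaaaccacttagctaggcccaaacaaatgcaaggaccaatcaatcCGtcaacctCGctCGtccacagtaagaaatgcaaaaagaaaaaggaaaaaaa
The Hoxd12 stretch holds 10 CG dinucleotides and that of Hoxd8 holds 6, against a median of 6 over the 32851 promoter entries of the same table, of which 92.1% hold at least 1. Entries existed for 22 of the 38 members. In the wider window of 1 kb to either side of the GENCODE start, the order was the other way round: CG dinucleotides numbered 43.0 per kb at Hoxd12 and 87.0 at Hoxd8. Over the members the median was 44.0 per kb (range 9.99 to 97.0), and over all protein-coding genes it was 30.5.

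After identical fragments had been counted once, the libraries held 159611 to 6746382 distinct fragments, with 5009169 to 6746382 for H3K9me3, 784360 to 3394830 for H3K4me3, 200457 to 3806026 for H3K27me3 and only 159611 to 270598 for IgG. Identical fragments made up 33.6% to 83.4% of a library. The labelled cell type was checked by H3K4me3 at marker starts, given as the mean over 4 libraries. The 8 spermatid genes had a median of 13.5 distinct fragments per 1000000 distinct fragments of the library (FPM), counted where the fragment's midpoint lay within 1 kb of the gene start (range 1.54 at the protamine gene Prm1 to 23.5 at the sperm tail gene Odf1). The 4 Sertoli, 4 Leydig and 4 peritubular or macrophage genes lay between 0.115 and 1.73, and the 4 spermatogonial genes between 0.185 and 2.44, against a median of 3.24 over all genes.

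Of the 3 marks, H3K27me3 had by far the highest density over the genome mean in all 4 Hox clusters. The clusters held 0.793% (95% exact binomial interval 0.784 to 0.802) and 1.01% (0.983 to 1.03) of the distinct H3K27me3 fragments in the KO libraries, and 0.658% (0.649 to 0.667) and 1.32% (1.27 to 1.37) in the WT libraries. These intervals cover counting error only. In density this was 37.0 to 74.0 times the genome mean. IgG libraries placed 21 to 40 fragments there, 0.0121% to 0.0148% of a library and 0.679 to 0.831 times the genome mean. Relative to IgG of the same genotype and number, H3K27me3 was higher by 6.11 ± 0.48 on the log2 scale (SD, n = 4), a 69.1-fold difference seen in 4 of 4 libraries. An exact sign-flip test over the 4 libraries, two-sided, gave p = 0.125, the smallest it allows.

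H3K4me3 and H3K9me3 were far closer to the genome mean over the same bases. H3K4me3 density was 1.89 to 2.05 times the mean, higher than IgG in 4 of 4 libraries by 1.41 ± 0.10 log2 (exact sign-flip p = 0.125). H3K9me3 density was 0.766 to 0.902 times the mean, and its difference from IgG was 0.19 ± 0.13 log2 (4 of 4 libraries, exact sign-flip p = 0.125). That small difference fell to -0.52 when every deposited fragment was counted, so its sign depended on how identical fragments were treated. With autosomal totals in place of those of all chromosomes counted it rose instead, so its size also depended on the total used.

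**Figure D1:**
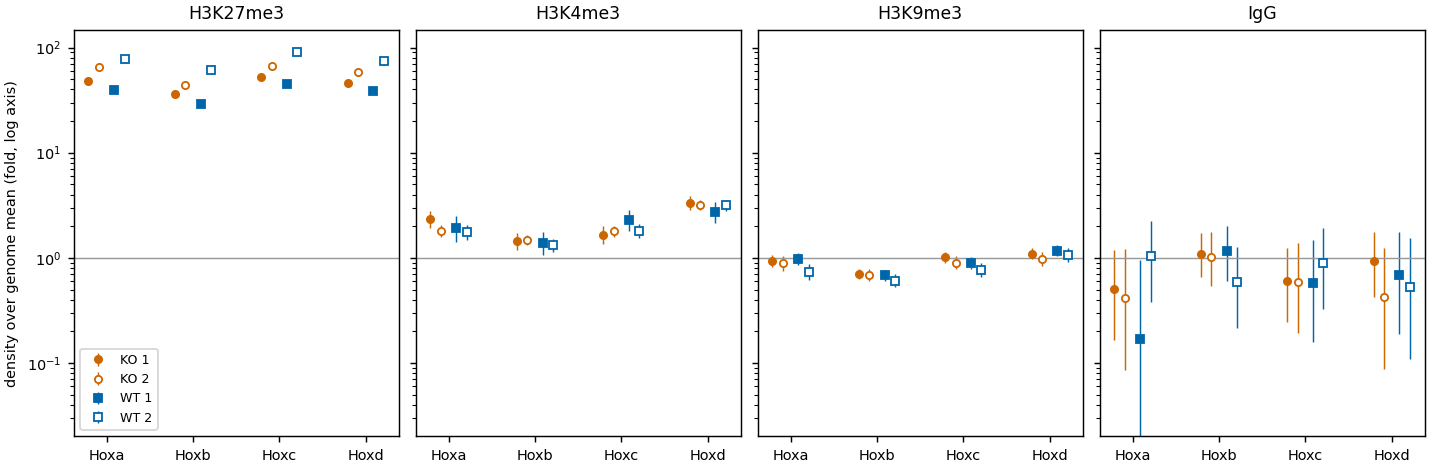
Density of distinct fragments in each Hox cluster, as fold over the genome mean (log axis), for each library of the 4 antibodies. Circles are KO and squares WT libraries, filled for number 1 and open for number 2, and bars are exact Poisson 95% intervals of the count. H3K27me3 lies at 29.3 to 90.8 in every cluster and library, and H3K4me3 at 1.32 to 3.32.

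The 4 clusters ranked in the same way for H3K27me3 in every library. Hoxc had the highest density, 63.9 ± 20.01 times the genome mean (SD, n = 4 libraries), followed by Hoxa (57.1 ± 16.9), Hoxd (54.5 ± 15.9) and Hoxb (42.7 ± 13.4). The spread between libraries was wider than these steps, but within a library all 6 pairs of clusters differed in the same direction in 4 of 4 libraries. The step from Hoxa to Hoxd was the smallest, 0.06 ± 0.06 log2, and that from Hoxb to Hoxc the largest, 0.58 ± 0.04 log2. For H3K4me3 the order was another: Hoxd was highest at 3.10 ± 0.26 times the mean, Hoxa (1.95 ± 0.27) and Hoxc (1.89 ± 0.27) did not differ beyond their spread, and Hoxb was lowest at 1.41 ± 0.08. Hoxd was also highest for H3K9me3, at 1.08 ± 0.08, and Hoxb lowest, at 0.673 ± 0.045. Of 18 pairs compared over the 3 marks, 16 went the same way in 4 of 4 libraries. The exact sign-flip test gave p = 0.125 for these, or 0.141 after Benjamini-Hochberg adjustment, so none passed a threshold of 0.05, which 4 libraries cannot reach.

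The lower density of Hoxb came with the long interval of 74.0 kb between Hoxb13, expressed at the posterior end of the axis, and Hoxb9. In that interval H3K27me3 was 23.8 and 28.5 times the genome mean in the KO libraries and 19.4 and 41.9 times in the WT libraries. From Hoxb9 to Hoxb1 the density was 45.2 and 55.1 times the mean in KO, and 35.9 and 73.9 times in WT. The interval was below the rest of the cluster in 4 of 4 libraries.

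Within the clusters H3K27me3 formed broad blocks separated by stretches of low signal. Of 242 bins of 2 kb, the 10% richest in H3K27me3 held 19.9% of the summed signal, while for H3K4me3 the richest 10% held 57.3%. A low stretch was defined as 3 or more adjacent bins under 25% of the median of its cluster, a rule chosen after the profiles had been seen. There were 2 such stretches in Hoxa, 2 in Hoxb, 1 in Hoxc and 3 in Hoxd, from 6 to 28 kb long. The longest, at chr11:96206316-96234315 in Hoxb, lay in the interval between Hoxb13 and Hoxb9 and averaged 0.760 FPM per kb, against a median of 16.4 for Hoxb. Starts of 3 members fell inside low stretches: Hoxa4 in chr6:52186417-52198416, Hoxc4 in chr15:103017103-103025102 and Hoxd8 in chr2:74704310-74710309. In the stretch around Hoxa4 H3K27me3 was 0.525 and 1.40 FPM per kb in KO and 0.403 and 2.49 in WT, against a Hoxa median of 23.7.

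**Figure D2:**
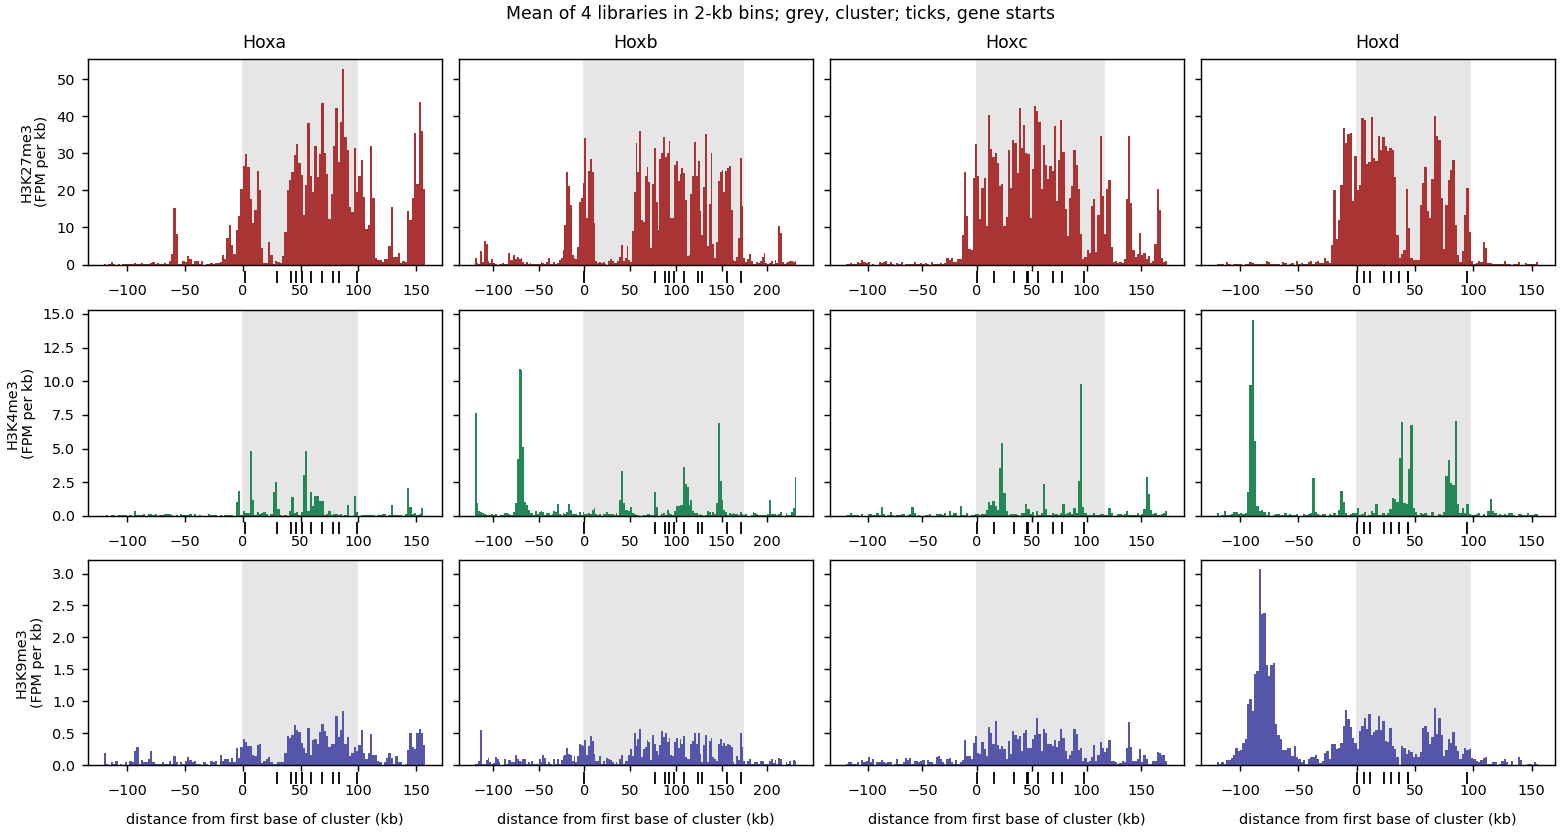
H3K27me3, H3K4me3 and H3K9me3 along each Hox cluster and its surroundings in 2-kb bins, as the mean of 4 libraries in FPM per kb, against distance from the first base of the cluster. Grey marks the cluster and ticks below the axis the gene starts. H3K27me3 fills the clusters in blocks, H3K4me3 is highest in a few bins, up to 9.79 inside the clusters, and H3K9me3 stays at or under 0.903 inside the clusters.

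H3K4me3 was concentrated in a few bins. The highest of the 242, at chr15:103015103-103017102 in Hoxc, lay inside the annotated span of Hoxc5 and reached 11.1 and 8.40 FPM per kb in KO and 12.7 and 6.88 in WT. H3K27me3 in that bin averaged 8.14, against a Hoxc median of 24.3. In Hoxd the bin at chr2:74706310-74708309, inside Hoxd8, had 8.90 and 5.597 in KO and 6.37 and 7.11 in WT, with H3K27me3 at 2.93 against a median of 21.7. Of the 12 bins formed by the 3 with most H3K4me3 in each cluster, 10 had less H3K27me3 than the median of their cluster. An exception was the leading Hoxb bin at chr11:96340316-96342315, inside the span of Hoxb3, where H3K4me3 averaged 6.87 and H3K27me3 22.4, above the Hoxb median. Its H3K4me3 spread widely, with 3.71 and 7.81 in KO and 12.7 and 3.21 in WT. The highest of these came from the shallowest H3K4me3 library. Over all 242 bins the 2 marks had a Spearman's rho of -0.05, with -0.37 in Hoxd (48 bins) and 0.00 to 0.03 in the other clusters. Bins share libraries and neighbours, so these are descriptions.

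H3K9me3 was low but followed the shape of H3K27me3. Over the 242 bins rho between the 2 marks was 0.86, and it was 0.81 to 0.88 in each cluster. Between H3K27me3 and IgG rho was -0.01, but IgG had only 21 to 40 fragments a library in the clusters. Most bins thus held few or no IgG fragments, and this rho cannot show whether IgG shares the shape. In the bins of the lowest, middle and highest H3K27me3 (81, 80 and 81 bins), H3K9me3 averaged 0.121, 0.321 and 0.494 FPM per kb and IgG 0.254, 0.274 and 0.285. What this likeness comes from was not tested.

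Outside the clusters H3K27me3 fell off unequally. Densities were compared with flanks as long as the cluster on either side. H3K27me3 inside was higher by 2.61 ± 0.07 log2 (SD, n = 4 libraries), 6.09-fold, in 4 of 4 libraries (exact sign-flip p = 0.125). Beyond Hoxd1 the flank averaged 1.33 times the genome mean, whereas beyond Hoxd13, where the homeobox gene Evx2 lies, it averaged 15.1 times. The flank beyond Hoxa13, which holds Evx1, averaged 25.3 times the mean and that beyond Hoxa2 6.36 times. For Hoxc the flank beyond Hoxc4 averaged 12.3 times and that beyond Hoxc13 6.29, and for Hoxb the flanks averaged 6.37 beyond Hoxb13 and 2.78 beyond Hoxb1. Flanks thus hold other Polycomb-marked genes: at the starts of Evx1 and Evx2 H3K27me3 was 42.8 and 69.7 FPM. With flanks of 50 kb the H3K27me3 difference was 1.82 log2. H3K4me3 inside exceeded the flanks by 0.54 ± 0.28 log2 (1.76 with flanks of 50 kb) and H3K9me3 by 1.15 ± 0.24 log2, each in 4 of 4 libraries. Taken alone, Hoxb had less H3K4me3 inside than in its flanks in 3 of 4 libraries (-0.24 ± 0.26 log2). For H3K9me3 Hoxd exceeded its flanks by only 0.27 ± 0.04 log2, and the flank beyond Hoxd13 (1.68 times the genome mean) was above the cluster itself (1.08) in 4 of 4 libraries.

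At gene starts, counted within 1 kb to either side, 22 of 38 Hox genes had more H3K27me3 than the 99th percentile of all genes (53.4 FPM) and 34 more than the 90th (23.6 FPM). Their median was 58.1 FPM and that of all protein-coding genes 0.351. The median of the Hoxc genes was 62.9, of Hoxb 59.3, of Hoxa 52.9 and of Hoxd 42.0 FPM. Windows were not all independent: Hoxd3 and Hoxd4 start 2 bp apart by GENCODE and share their fragments, and the Hoxc5 and Hoxc10 starts lie 647 bp apart.

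At the outermost starts the 3 highest were Hoxa9, Hoxd12 and Hoxc6. Hoxa9, which acts in posterior axial patterning and blood progenitors (start at chr6 52231089, minus strand), had 63.1 and 119 FPM in the KO libraries and 50.8 and 94.8 in WT. Hoxd12, a limb patterning gene (chr2 74675013), had 73.0 and 75.9 in KO and 57.1 and 115 in WT. Hoxc6, a gene of the thoracic region (chr15 102998257), had 63.8 and 110 in KO and 47.0 and 94.8 in WT. In each, the libraries numbered 2 were the higher of their genotype and the genotypes overlapped. For H3K27me3 these were also the shallower libraries, with 711758 (KO) and 200457 (WT) distinct fragments. The libraries numbered 1 held 3806026 and 2891646. Hoxd12 and Hoxc6 had no IgG fragment in any library. Against a floor of 3 IgG fragments over the 4 libraries (3.79 FPM), H3K27me3 was at least 21.1-fold higher at Hoxd12 and at least 20.8-fold higher at Hoxc6.

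At the other end stood the 3 genes of the low stretches. Hoxa4, which patterns the neck region (chr6 52191753, minus strand), had 1.31 and 1.40 FPM in KO and 0.346 and 4.99 in WT. Hoxc4 (chr15 103018934) had 1.84 and 5.62 in KO and 2.42 and 4.99 in WT. Hoxd8 (chr2 74704615) had 3.15 and 9.83 in KO and 4.50 and 4.99 in WT. In the WT library numbered 2 a value of 4.99 is a single fragment. The next lowest, Hoxb3, averaged 15.7 FPM, and every other member at least 31.1. H3K9me3 was at its lowest at Hoxa4 and Hoxd8 too, with 1 fragment each over 4 libraries. These 2 genes were among the members richest in CG dinucleotides (86.5 and 87.0 per kb), but Hoxa13, with 97.0 per kb, had 31.1 FPM of H3K27me3. The part of base composition was not tested. Over gene bodies Hoxa4 was again lowest, at 0.168 FPM per kb, and Hoxa11, a gene of forelimb and uterus, highest at 35.2.

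Where a gene starts mattered for some members, since 9 of 38 have a principal transcript that begins more than 1 kb from the outermost start. Hoxc4 rose from 3.72 FPM at its outermost start to 69.1 at the start of its principal transcript (chr15 103034395), so its low value belongs to the outer start. The reverse held for Hoxd4, with 41.8 FPM at the start it shares with Hoxd3 and 6.54 at its principal start (chr2 74721978), inside another low stretch of Hoxd. For Hoxa4 and Hoxd8 both starts are the same. Hoxa9 fell to 47.5 FPM and Hoxc6 to 65.5 at their principal starts, where the 3 highest members were Hoxd12 (80.2), Hoxc9 (77.7) and Hoxd10 (71.5).

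**Figure D3:**
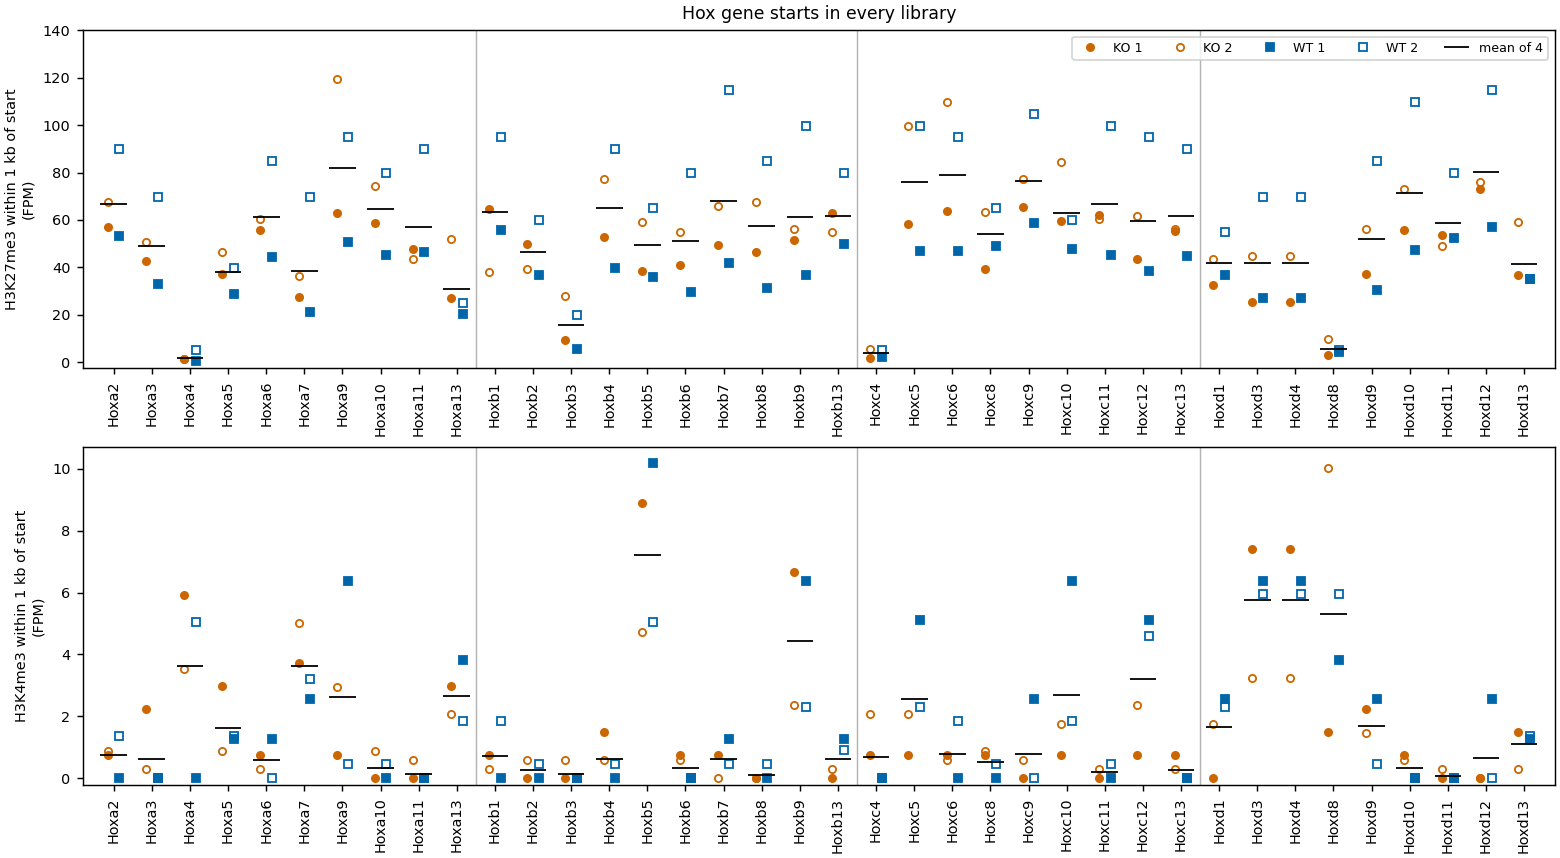
H3K27me3 and H3K4me3 within 1 kb of the start of each of the 38 Hox genes, ordered by cluster and paralog number, in FPM for every library. Lines are means of 4 libraries. H3K27me3 is under 10 in every library at Hoxa4, Hoxc4 and Hoxd8, and H3K4me3 averages at most 7.21.

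H3K4me3 at Hox starts was low for protein-coding genes. The members' median was 0.734 FPM against 3.24 over all genes, 7 of 38 lay above that overall median, and none reached the 90th percentile of 21.3. The windows inside the clusters held 418 distinct H3K4me3 fragments over the 4 libraries, and 1 fragment is worth 1.27 FPM in the shallowest library. The highest was Hoxb5, a lung and vagal patterning gene, with 8.90 and 4.71 FPM in KO and 10.2 and 5.04 in WT. Hoxd3 and Hoxd4, which pattern the upper neck, shared 7.42 and 3.24 in KO and 6.37 and 5.96 in WT. Hoxd8 followed with 1.48 and 10.02 in KO and 3.82 and 5.96 in WT. The lowest were Hoxd11, a forearm and kidney gene, with 0 and 0.295 in KO and 0 in both WT libraries, Hoxb8 with 0 in both KO and 0 and 0.458 in WT, and Hoxb3 and Hoxa11, tied with 0 and 0.589 in KO and 0 in both WT. Values of 0 there allow up to 3 fragments each. At the principal start of Hoxa7, H3K4me3 averaged 9.28 FPM, against 3.62 at its outermost start, whereas at that of Hoxd4 it averaged 0.262, against 5.75 at the start shared with Hoxd3.

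H3K9me3 at Hox starts had a median of 0.761 FPM against 0.148 over all genes. Hoxd12 (mean 1.65), Hoxd11 (1.52) and Hoxc9 (1.46) were highest, all of them high in H3K27me3, and Hoxd8, Hoxa4 and Hoxb3 (0.048, 0.048 and 0.095) lowest. At Hoxd12 the values were 1.63 and 1.72 in KO and 1.46 and 1.80 in WT, a narrow range. At Hoxd11 they were 2.37 and 0.572 in KO and 1.95 and 1.20 in WT, higher in the libraries numbered 1, and at Hoxc9 1.48 and 0.954 in KO and 1.79 and 1.60 in WT. Hoxd8 and Hoxa4 had 0.191 and Hoxb3 0.382 in the KO library numbered 2 and 0 in the other libraries. Across the 38 members rho was 0.75 between H3K27me3 and H3K9me3 and -0.25 between H3K27me3 and H3K4me3.

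Compared with IgG in libraries thinned to 159611 fragments each, H3K27me3 was called higher by limma-voom (adjusted p under 0.05) at 34 of the 34 Hox starts that reached 10 fragments, where 81.9% of 3288 genes tested were called higher. That filter keeps mainly genes that one antibody marks. With a minimum of 1 fragment in place of 10, 37 of 38 members were called, against 32.1% of 13056 genes. With TMM factors 24 of the 34 were called, against 45.0% of the 3288 genes, and the median moved from 3.94 to 1.99 log2 for the members and from 3.06 to 1.14 for all genes. These fitted values depend on the prior count where IgG has few or no fragments, so none is given for a single member. No member reached 10 fragments in the thinned H3K4me3 or H3K9me3 comparison. At a minimum of 1 fragment H3K4me3 was called higher than IgG at 4 of 27 members, against 50.7% of all genes, and H3K9me3 at 0 of 25 (1 at unadjusted p under 0.05), against 0.338%. Limma-trend had no member to test at 10 fragments either.

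Set against H3K4me3, H3K27me3 took the larger share of its library at 36 of 38 Hox starts (limma-voom, adjusted p under 0.05), where 29.0% of 16648 genes tested were called in that direction and 59.7% in the other. The members' median was 6.01 log2 and that of all genes -3.11. Hoxb5, richest in H3K4me3, differed by 2.96 ± 0.48 (SE, adjusted p = 1.24e-09). Members with few H3K4me3 fragments have fitted values that depend on the prior count, and they are not ranked here. Hoxc4 differed by 1.87 ± 0.84 (adjusted p = 0.030). The 2 members not called were Hoxa4 (-0.86 ± 0.81, adjusted p = 0.31) and Hoxd8 (-0.49 ± 0.61, adjusted p = 0.44). When every deposited fragment was counted, 36 members still had a positive difference, with a median of 6.52 log2, but none passed the adjusted p, and only 9 genes in all did. With TMM factors, which moved the median of all genes to -1.23 log2, all 38 differences were positive and 36 were called, against 34.1% of all genes. Hoxa4 was called lower in H3K27me3 with windows of 2 kb (-1.77 ± 0.69 log2, adjusted p = 0.016), without the H3K27me3 WT library numbered 2 (-1.58, adjusted p = 0.028) and without the H3K4me3 WT library numbered 1 (-1.63, adjusted p = 0.035).

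**Figure D4:**
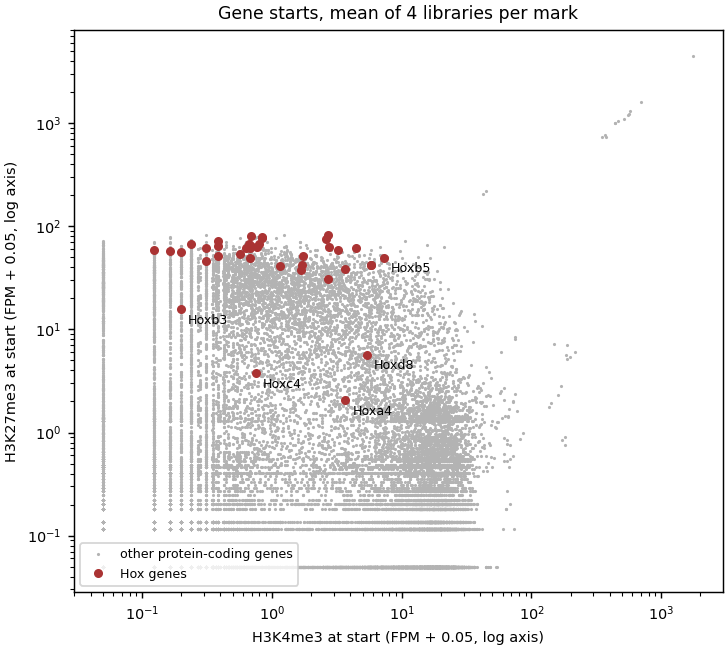
H3K27me3 against H3K4me3 at the start of every protein-coding gene (grey) and of the 38 Hox genes (red), as means of 4 libraries in FPM plus 0.05, on log axes. The Hox genes form a group at the top, with medians of 58.1 for H3K27me3 and 0.734 for H3K4me3, and Hoxa4, Hoxc4 and Hoxd8 lie below it.

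The level of H3K27me3 at outermost starts was also set against paralog number. Outermost starts do not all lie in paralog order: that of Hoxc5 is 647 bp from that of Hoxc10. The values below hold for outermost starts only. At principal starts Hoxc4 had 69.1 FPM in place of 3.72, and Hoxd4 6.54 in place of 41.8. Over 38 genes rho with paralog number was 0.27 (0.26 to 0.34 in single libraries), and in the clusters it was -0.02 in Hoxa, 0.26 in Hoxb, -0.05 in Hoxc and 0.31 in Hoxd. In single libraries it ran from -0.05 to 0.13 in Hoxa, 0.03 to 0.46 in Hoxb, -0.30 to 0.15 in Hoxc and 0.33 to 0.78 in Hoxd. Medians were 42.0 FPM for the 11 genes of paralogs 1 to 4, 54.1 for the 11 of paralogs 5 to 8 and 61.7 for the 16 of paralogs 9 to 13. All 16 of the posterior genes had at least 31.1 FPM, and the low values of 2.01 and 5.62 lay among paralogs 4 and 8. For H3K4me3 only Hoxd had a larger value, -0.68 (-0.82 to -0.34 in single libraries, n = 9 genes), at outermost starts, where Hoxd3 and Hoxd4 share a window. For H3K9me3 rho was 0.54 in Hoxd and 0.43 in Hoxc, and -0.28 in Hoxb.

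Genes outside the clusters that work with Hox genes showed both patterns. Of all 16648 genes tested, 29.0% were called higher in H3K27me3 than in H3K4me3 and 59.7% lower. Of the 5 ParaHox and Cdx genes, the evolutionary sisters and upstream regulators of Hox genes, 4 had H3K27me3 at 45.1 to 65.1 FPM and were called higher than H3K4me3, while the X-linked Cdx4 had 0.173. Among 9 genes of the TALE cofactors, which bind DNA with Hox proteins, 5 were called higher in H3K27me3 and 3 lower (29.0% and 59.7% of all genes). Meis1, Meis2 and Meis3 had 39.4 to 44.5 FPM of H3K27me3, whereas Pknox1 and Pbx4 had under 1 and H3K4me3 at 18.2 and 17.4. Of 26 Polycomb subunit genes 17 were called lower, close to the 59.7% of all genes, and 4 higher (29.0% of all genes). At Eed and Suz12, core subunits of Polycomb repressive complex 2, no H3K27me3 fragment was counted and H3K4me3 was 19.7 and 15.1 FPM. Of 9 trithorax and H3K27 demethylase genes 8 were called lower (59.7% of all genes), the exception being Kmt2a (H3K27me3 41.4 FPM), a methyltransferase that maintains Hox expression. Of 10 genes flanking the clusters 4 were called higher and 5 lower, near the shares of all genes (29.0% and 59.7%). Among those called lower was Lnpk beside Hoxd, with H3K4me3 at 30.03 FPM.

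The remaining comparison asked whether loss of H2A.B changed the marks at Hox genes. By limma-voom no member was called at its start for any mark (0 of 37 tested for H3K27me3, 0 of 15 for H3K4me3 and 0 of 32 for H3K9me3), and the share called over all genes was also 0%. At unadjusted p under 0.05 the count of members was 0 for each mark. Limma-trend called none, with 1 H3K4me3 member at unadjusted p under 0.05. Over gene bodies 0 of 37, 0 of 22 and 0 of 37 members were called, again against 0% of all genes, and none had an unadjusted p under 0.05. Limma-trend again called none, with 1 H3K4me3 member at unadjusted p under 0.05. When every deposited fragment over bodies was counted, 7 of 38 H3K27me3 members had a limma-voom unadjusted p under 0.05. Over all genes 96 of 17660 did, and no member was called. In that fit 37 of 38 members were higher in KO (median 0.39 log2), as were 34 of 37 in the main body fit (0.19). The sign depended on the fit. Limma-trend had 13 of 37 higher (median -0.05), and the fit with the replicate number as a block had 19 of 37 (0.0015). With 2 libraries a group, standard errors at the H3K27me3 starts were 0.56 to 0.95 log2. A call needs a change of several standard errors, so changes of this size and larger ones could go uncalled. The labels give the libraries numbered 1 and those numbered 2 a code each, whose meaning they do not state. With a replicate block 0 members were called for each mark too. Over bodies that block left 3 of 22 H3K4me3 members at unadjusted p under 0.05, against 973 of 18143 genes.

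The H3K27me3 changes at the 37 tested starts ran from -0.36 to 0.67 log2, with a median of 0.19 against -0.07 over all genes. The sign of that median depended on the fit: it was -0.13 by limma-trend, -0.15 with the replicate number as a block, and -0.63 without the WT library numbered 1, but 0.40 with every deposited fragment, 0.38 with TMM factors, 0.37 without the WT library numbered 2 and 0.51 without the KO library numbered 1 (3 members at unadjusted p under 0.05, with a median of -0.73 over all genes). Hox genes were higher in KO in 31 of 37 cases between the libraries numbered 1 (median 0.31, on the scale of log2 of FPM plus 1) and in 9 of 37 between those numbered 2 (median -0.46). Libraries numbered 2 were the shallower of each genotype for this mark. Both KO libraries exceeded both WT libraries at 2 of 37 members, where 5.50% of all genes did, and the opposite held at 0, where 9.41% did. The first of these shares is close to that of all genes. The 2 are Hoxa13 and Hoxd13, named after their values had been seen. Hoxa13, which patterns digits and the genital tubercle, had 27.1 and 52.0 FPM in KO and 20.4 and 24.9 in WT (0.56 ± 0.59 log2, limma-voom adjusted p = 0.99999). Hoxd13, its partner in the digits, had 36.8 and 59.0 in KO and 34.9 in both WT libraries (0.27 ± 0.56, adjusted p = 0.99999). Neither difference exceeded its standard error. The WT library numbered 2 held only 5 fragments at Hoxa13 and 7 at Hoxd13, so these WT values are imprecise.

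For H3K4me3, both KO libraries were above both WT libraries at 1 of 15 members (27.8% of all genes) and below them at 4 (6.75%). The 4 were Hoxc5, Hoxc10, Hoxc12 and Hoxd1, named after their values had been seen, of which Hoxc5 and Hoxc10 share part of their window. At Hoxc12, a posterior axial gene, H3K4me3 was 0.742 and 2.36 FPM in KO and 5.10 and 4.58 in WT, -1.38 ± 0.70 log2 (limma-voom adjusted p = 0.999). The 1 above was Hoxa7, at 0.51 ± 0.62 (adjusted p = 0.999). For H3K9me3 3 of 32 members were above (16.3% of all genes) and 5 below (12.5%).

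**Figure D5:**
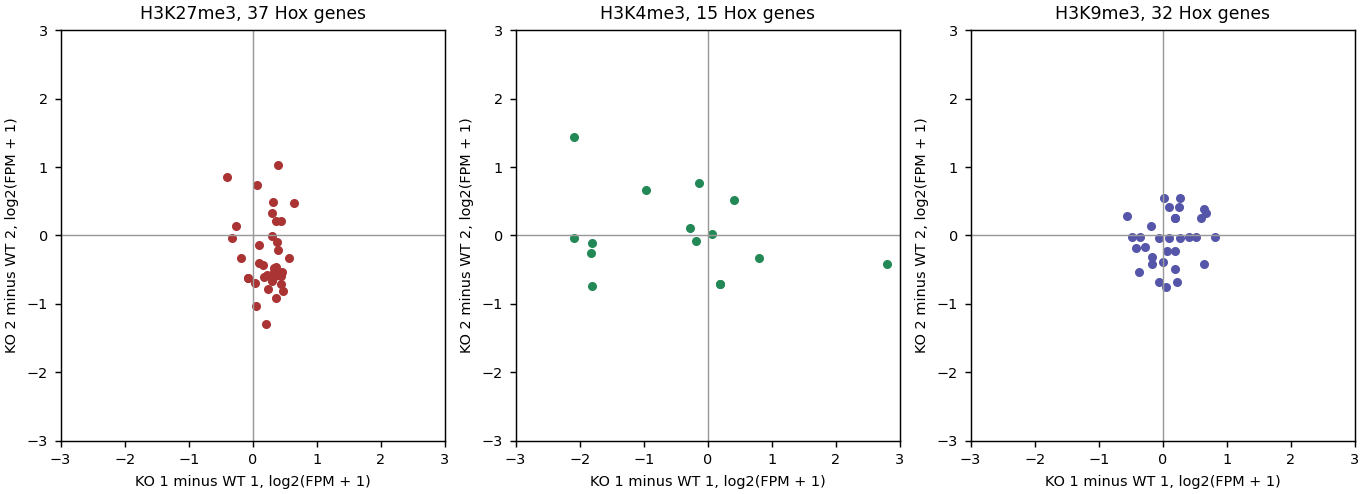
KO minus WT at Hox gene starts, as differences of log2 of FPM plus 1, between the libraries numbered 1 (horizontal) and numbered 2 (vertical), for members with at least 10 fragments. Each point is 1 gene. For H3K27me3 31 of 37 points lie right of 0 and 9 above 0.

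Summed over the 4 clusters, the KO and WT libraries overlapped for each mark. On the log2 scale of FPM over the 4 clusters, H3K27me3 reached 13.13 ± 0.24 in the KO and 13.18 ± 0.71 in the WT libraries (SD, n = 2 per genotype), and KO minus WT was -0.06 (exact permutation p = 1). The libraries numbered 1 differed by 0.27 and those numbered 2 by -0.39. H3K4me3 reached 8.48 ± 0.04 with KO against 8.43 ± 0.04 with WT, 0.06 apart (exact permutation p = 0.667). H3K9me3 reached 7.27 ± 0.07 and 7.20 ± 0.16, 0.07 apart (exact permutation p = 0.667). With every deposited fragment counted these 2 differences turned to -0.095 and -0.25, and that of H3K27me3 to 0.03. Single clusters went different ways: KO minus WT in H3K4me3 was -0.24 in Hoxc and 0.18, 0.12 and 0.15 in Hoxa, Hoxb and Hoxd, and in H3K9me3 it was -0.11 in Hoxd and 0.099, 0.11 and 0.19 in Hoxa, Hoxb and Hoxc. The genotypes did not overlap for H3K4me3 in Hoxb, Hoxc and Hoxd and for H3K9me3 in Hoxb (exact permutation p = 0.333 each). A two-sided exact test of 2 against 2 libraries cannot go below 0.333.

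Summed over the 4 clusters, small fragments (at most 120 bp) were more frequent relative to large ones (at least 150 bp) in each KO library than in the WT library of the same number, for all 3 marks. For H3K4me3 the ratio was 0.531 and 0.548 in KO and 0.306 and 0.250 in WT, and on the log2 scale KO exceeded WT by 0.96 (exact permutation p = 0.333). For H3K27me3 the ratio came to 0.224 and 0.437 (KO) against 0.143 and 0.221 (WT), 0.82 apart (exact permutation p = 0.333), with the lower KO library close to the higher WT library. H3K9me3 ratios were 0.115 and 0.288 in KO and 0.061 and 0.206 in WT, and the genotypes overlapped (0.70, exact permutation p = 0.667). Between libraries of the same number KO exceeded WT in both cases for every mark. The H3K4me3 differences were 0.79 and 1.13, those of H3K27me3 were 0.65 and 0.99, and H3K9me3 gave 0.91 and 0.48. In single clusters H3K9me3 did not always do so, with 0.21 and -0.13 in Hoxd and 1.13 and -0.017 in Hoxb. Leaving out 1 library moved the H3K9me3 value of 0.70 to -0.18 (without WT 1), 0.033 (without KO 2), 1.36 (without KO 1) or 1.57 (without WT 2). The H3K27me3 value of 0.82 ran from 0.34 (without KO 2) to 1.30 (without KO 1), with 0.50 without WT 1. Outside the clusters the same differences were 0.88 for H3K4me3, 0.69 for H3K27me3 and 0.55 for H3K9me3. In that part of the genome IgG, the control, also differed, by 0.48 between both same-numbered libraries, and inside the clusters, on 21 to 40 fragments a library, by -0.58 and -0.057. Whether the clusters differed from the rest of the genome in this was not tested. The share of cluster fragments lying within 1 kb of a Hox start was 18.98% to 19.3% for H3K27me3 in all 4 libraries and 14.8% to 18.9% for H3K4me3, where these windows take up 14.2% of the bases.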

How the data were processed

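Fragment lists were deposited for 16 AutoCUT&RUN libraries. The authors mapped read pairs with Bowtie2 on the mm10 assembly (version 2.3.4.3 in the submitters' processing notes, an earlier one in the methods) and wrote each fragment as its chromosome, start, end and length. The deposited values are positions and lengths, not counts. The methods state that duplicates were removed, but the lists hold identical fragments, and these were counted once. A fragment was counted where its midpoint lay, on chromosomes 1 to 19, X and Y, with gene starts, gene bodies and principal transcripts from GENCODE release M21.

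Counts were scaled to fragments per 1000000 distinct fragments (FPM). Genes with at least 10 fragments over the libraries of a comparison were fitted with limma 3.58.1 (voom weights, R 4.3.3), with Benjamini-Hochberg adjusted p under 0.05 as the call. For comparisons with IgG, libraries were thinned at random to 159611 fragments, because on simulated data the much shallower IgG libraries otherwise gave false calls. This departs from the design first written. The fits were tested on simulated data. Single values were compared with exact tests over libraries, computed in Python 3.11.15 with SciPy 1.17.1. Depth limits precision, and intervals cover counting error only.

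Libraries numbered 1 and 2 carry different codes in the labels. Deviations from the genotype mean correlated between KO and WT of the same number (Pearson's r over genes 0.26 for H3K4me3, 0.20 for H3K27me3 and 0.23 for H3K9me3), and a fit with the number as a block was run beside each comparison.

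Members and gene lists were chosen with earlier results of these data known. For each mark the 3 members with the highest and the 3 with the lowest mean level are named with every library, as are members called between KO and WT. Other members are given by range, count or mean, and up to 4 genes of each other list are named. Alternatives were other windows and starts, any overlap in place of the midpoint, every deposited fragment, limma-trend, trimmed mean (TMM) factors, no filter, other flanks and lengths, and leaving out each library. Each cluster ran from its first to its last listed gene, and sequence beyond them counted as flank.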

Additional observations from a re-analysis of the deposited data

How the results depend on the processing

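Of 213 alternatives over 22 results, 200 kept the direction and side of the threshold or stayed within the spread between libraries. These include alternatives that could not differ. For H3K4me3 and H3K9me3 against IgG, the main fit and most alternatives had no member to test. Among the 66 alternatives for KO against WT at starts and bodies, 0 called a member. With the replicate number as a block 0 members were called for each mark, and in the other comparisons the number of members called was the same as without the block. Over bodies the block called 45 genes for H3K9me3, none of them a member, against 0 without it. In the H3K27me3 starts, 2-kb windows called 9 genes and leaving out the KO library numbered 1 called 15, against 0, none of them members.

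Counting every deposited fragment moved the most values. H3K27me3 was then called above H3K4me3 at 0 members in place of 36, although 36 differences stayed positive (median 6.52 against 6.01 log2), and H3K4me3 was called above IgG at 2 in place of 0. KO minus WT over the clusters became -0.095 for H3K4me3 and -0.25 for H3K9me3, the differences from IgG 0.996 for H3K4me3 and -0.52 for H3K9me3, and the KO minus WT small to large difference of H3K4me3 1.31 (all log2). The H3K9me3 difference from IgG was 0.70 with autosomal totals. Flanks of 50 kb gave 1.76 for H3K4me3 and 1.82 for H3K27me3. Minimum counts of 1 gave 4 members for H3K4me3 against IgG. Unthinned libraries, an alternative chosen after seeing the data, gave 1 called above IgG for H3K4me3 and 9 called for H3K9me3, all of them below IgG. The cause was not tested for these. With single libraries left out, H3K27me3 members above IgG ranged from 31 to 34 (24 with TMM factors) and above H3K4me3 from 35 to 36. KO minus WT over the clusters ranged from -0.56 to 0.44 for H3K27me3.

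H3K4me3 at the Hox starts is limited by depth: 418 distinct fragments over 4 libraries in the start windows inside the clusters.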
